A study of Mus musculus with 18 samples.

Results

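The genes described here are feedback inhibitors of the mitogen-activated protein (MAP) kinases: the dual-specificity phosphatases Dusp1, Dusp2, Dusp4, Dusp5, Dusp6 and Dusp10, the Sprouty genes Spry1 and Spry2, and the related gene Spred1. They are 9 of the 18193 genes that the chip annotation ties to at least 1 probe set of their own, and they were followed over all 7 groups of arrays. The 9 genes have 18 probe sets, and the most variable probe set over the 18 arrays stands for each gene. Single probe sets stand for Dusp1, Dusp2, Dusp4, Dusp5, Dusp6 and Spry1, whereas Dusp10 and Spry2 have 2 each and Spred1 has 8.

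MAP kinases carry signals from antigen, cytokine and stress receptors to the nucleus. Dual-specificity phosphatases switch them off by removing phosphate from both the threonine and the tyrosine of the activation loop, and they differ in the kinase they prefer (ERK, JNK or p38) and in where they act in the cell. Sprouty and Spred proteins act further upstream, on the Ras to ERK route, and many genes of both families are themselves induced by the signal that they restrain. In T cells their RNA is often read as a sign of recent receptor signalling.

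The study sorted CD4+ T cells from lymph nodes and spleen of B6;129 mice and hybridised their RNA, freshly isolated and amplified with a two-cycle labelling kit, to Affymetrix arrays. All mice were heterozygous at the X-linked gene Foxp3, which encodes the factor that defines regulatory T (Treg) cells: one allele carried an hCD2 reporter and was either wild type or one of 3 missense mutants, and the other was a wild-type allele with a GFP reporter. Each Treg cell is thus marked by the allele it uses, and mutant cells developed beside wild-type ones. The samples were hCD2+ Treg cells with Foxp3 A384T, I363V or R397W (3 arrays each), GFP+ wild-type Treg cells of A384T mice (3 arrays), hCD2+ wild-type Treg cells (WT hCD2, 2 arrays, numbered 3 and 4) and GFP+ wild-type Treg cells (WT GFP, 2 arrays) of wild-type mice, and conventional T cells without either reporter (Tconv, 2 arrays) from those wild-type mice. Tconv cells of mutant mice, and GFP+ cells of I363V or R397W mice, are not among the samples used here, and the animals' ages are not given in the sources used here.

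The deposited log2 values are set so that the 2 Tconv arrays average 0 for every probe set. A value is therefore a difference from Tconv on the log2 scale, levels of different genes cannot be compared, and whether a gene is below detection cannot be judged. In bulk samples, fewer cells of a type and less RNA per cell cannot be told apart. The sorts carried the identity they were labelled with as far as centred values show it: Foxp3 lay between 6.38 and 7.59 on the 16 Treg arrays and all 6 Treg identity genes were higher in wild-type Treg cells than in Tconv cells. Markers of other cell types also differed, and their part in the results below was not tested. In wild-type Treg against Tconv cells, 1 of 5 B cell markers was higher (Cd79b, log2 change 2.21 ± 0.26) and 2 of 5 dendritic cell markers were lower (Itgax, -1.16 ± 0.25, and Flt3, -0.51 ± 0.14). The median of 8 myeloid markers was -1.62 to -0.89 on the R397W arrays, against 0.13 and 0.14 on the WT hCD2 arrays, and 1 of the 8 was lower in R397W cells (Lyz2, -2.66 ± 0.35). That median was -0.78 to 0.05 on the A384T and -0.36 to -0.02 on the I363V arrays, with 0 of the 8 called against WT hCD2 cells in either mutant. In I363V cells 1 of 5 B cell markers was lower than in WT hCD2 cells (Cd22, -1.03 ± 0.23). Some arrays deviated together from their group means, with correlations across genes of 0.71 for WT GFP 1 and Tconv 1, 0.77 for WT GFP 1 and WT hCD2 3, and 0.72 for WT hCD2 3 and Tconv 1. With 2 arrays a group, the second array has the opposite deviation to the first, so the second arrays share this structure.

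Promoter sequences of 8 of the 9 genes were found in a RefSeq table (build GRCm38.p6), which gives 250 bases before and 50 after the start site; 3 of them are shown without the bases after the start. Dusp1 and Dusp5 held the only motif matches, and Spry1 is the other gene of this table that was called between wild-type Treg and Tconv cells. Capitals mark a cyclic AMP response element (TGACGTCA) in Dusp1 and adjoining CArG boxes, the motif bound by serum response factor, in Dusp5. The Dusp1 sequence is chr17:26508473-26508722 on the minus strand, that of Dusp5 is chr19:53528895-53529144 on the plus strand, and that of Spry1 is chr3:37639697-37639946 on the plus strand.
Dusp1: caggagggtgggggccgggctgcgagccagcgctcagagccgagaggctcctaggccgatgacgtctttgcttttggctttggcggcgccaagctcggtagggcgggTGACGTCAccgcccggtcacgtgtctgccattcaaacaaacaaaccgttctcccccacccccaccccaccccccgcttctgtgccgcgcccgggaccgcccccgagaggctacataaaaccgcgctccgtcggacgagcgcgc
Dusp5: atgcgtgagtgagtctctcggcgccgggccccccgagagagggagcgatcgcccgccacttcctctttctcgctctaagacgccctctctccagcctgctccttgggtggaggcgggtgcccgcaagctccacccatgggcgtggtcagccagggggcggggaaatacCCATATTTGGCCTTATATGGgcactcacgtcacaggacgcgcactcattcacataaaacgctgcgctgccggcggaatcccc
Spry1: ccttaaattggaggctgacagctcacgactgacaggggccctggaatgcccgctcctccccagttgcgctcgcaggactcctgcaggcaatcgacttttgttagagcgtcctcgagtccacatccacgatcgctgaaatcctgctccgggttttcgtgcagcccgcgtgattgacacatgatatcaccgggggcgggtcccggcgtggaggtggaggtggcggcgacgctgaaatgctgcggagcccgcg

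The element in Dusp1 begins at position -143, and 1.79% of the 32851 promoters in the table hold one. The boxes of Dusp5 begin at -82 and -72, and 1.63% of promoters hold at least one; this motif was added after the sequences had been read. The other motifs searched on both strands were AP-1 (TGANTCA, in 7.81% of promoters), Ets (CCGGAAGT, 3.89%), forkhead (TGTTTAC, 3.65%), NFAT (TGGAAA, 21.4%) and Egr (GCGTGGGCG, 0.612%). None of them matched in the windows of the 8 genes. A match is a description of the letters, and these data do not measure binding.

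The first comparison asked where wild-type Treg cells stand against conventional T cells. Dusp4, Spry1 and Dusp1 were higher in wild-type Treg cells, by 23.8-fold, 3.55-fold and 3.45-fold, and the other 6 genes did not pass. Thus 3 of 9 were called, all higher, beside 5.84% of all genes called in either direction; the median change was 0.26 for the 9 genes and -0.01 for all genes. A gene is called at an adjusted p under 0.05 in limma's moderated test over all genes.

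Dusp4, a nuclear phosphatase that acts on ERK and JNK, stood at 4.73 and 4.51 on the WT hCD2 arrays and 4.40 and 4.64 on the WT GFP arrays, against 0.20 and -0.20 on the Tconv arrays. Every Treg array was far above both Tconv arrays, and the wild-type Treg arrays differed little from each other beside that distance. The log2 change was 4.57 ± 0.30 (adjusted p = 1.69e-07), and with each array left out in turn it ran from 4.37 to 4.77 and was called each time.

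Spry1, an inhibitor of the Ras to ERK route, had 1.98 and 1.77 on the WT hCD2 arrays and 1.92 and 1.65 on the WT GFP arrays, against 0.17 and -0.17 on the Tconv arrays. The groups were again well apart, with a log2 change of 1.83 ± 0.21 (adjusted p = 4.53e-05). Without 1 array it lay between 1.66 and 1.99 and was called in each of these fits.

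Dusp1, an immediate-early phosphatase of the nucleus that acts mainly on p38 and JNK, had 2.19 and 1.39 on the WT hCD2 arrays and 2.22 and 1.35 on the WT GFP arrays, against 0.88 and -0.88 on the Tconv arrays. The groups did not overlap, but the Tconv arrays were further apart from each other than the lowest Treg array was from the higher of them. The log2 change of 1.79 ± 0.48 passed narrowly (adjusted p = 0.0421). The call was lost without Tconv 2 (0.91, adjusted p = 0.621), without WT GFP 1 (1.57, adjusted p = 0.129), without WT hCD2 3 (1.59, adjusted p = 0.132), or when the spread was estimated from these groups alone (adjusted p = 0.206).

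Early response genes, which dissociation and sorting of tissue can also induce, moved as a list, though not each of them, across the same arrays as Dusp1. The array medians of a list of 12 such genes (Fos, Jun, Ier2, Nr4a1 and others) were 0.83 and 0.06 in WT hCD2 and 0.94 and 0.07 in WT GFP cells, against 0.43 and -0.43 in Tconv cells. Jun and Ier2 were higher on the first array of each of these groups, like Dusp1. In wild-type Treg cells Fos was lower there (0.37 and 0.78 in WT hCD2, 0.42 and 0.58 in WT GFP cells). So was Nr4a1 (0.93 and 0.99, and 0.85 and 1.06). Of the 12, Rgs1, an inhibitor of G protein signalling (3.99 ± 0.23), and the AP-1 gene Junb (1.45 ± 0.39) were higher in wild-type Treg cells. The Junb call was lost without Tconv 2 (0.85, adjusted p = 0.555), WT GFP 1 (1.23, adjusted p = 0.125) or WT hCD2 3 (1.24, adjusted p = 0.13), while Rgs1 was called with each array left out. The part of the list in the Dusp1 result was not tested.

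Spry2, the second Sprouty gene, lay at -0.36 and -0.39 on the WT hCD2 arrays and -0.55 and -0.53 on the WT GFP arrays, against -0.25 and 0.25 on the Tconv arrays. All 4 Treg arrays were below both Tconv arrays, unlike Spry1, yet the log2 change of -0.46 ± 0.14 did not pass (adjusted p = 0.0812). It was called without Tconv 1 (-0.71, adjusted p = 0.0163) and with the mean of its probe sets (-0.36, adjusted p = 0.0445), whereas without Tconv 2 the change was -0.20 (adjusted p = 0.766).

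The remaining phosphatases had wild-type Treg arrays that overlapped the Tconv arrays. Dusp5, a nuclear phosphatase specific to ERK, had a log2 change of 0.59 ± 0.38 (adjusted p = 0.531), and Dusp2, a nuclear phosphatase of activated lymphocytes, one of 0.19 ± 0.37 (adjusted p = 0.889). Dusp6, the cytoplasmic ERK phosphatase, had 0.06 ± 0.29 (95% interval -0.56 to 0.69), and Dusp10, which acts on JNK and p38, -0.55 ± 0.65 (95% interval -1.94 to 0.83). None of these 4 was called in the fit of all 18 arrays, and the direction of Dusp2, Dusp6 and Dusp10 turned when single arrays were left out (for Dusp2, 0.83 without Tconv 1 and -0.45 without Tconv 2).

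**Figure D1:**
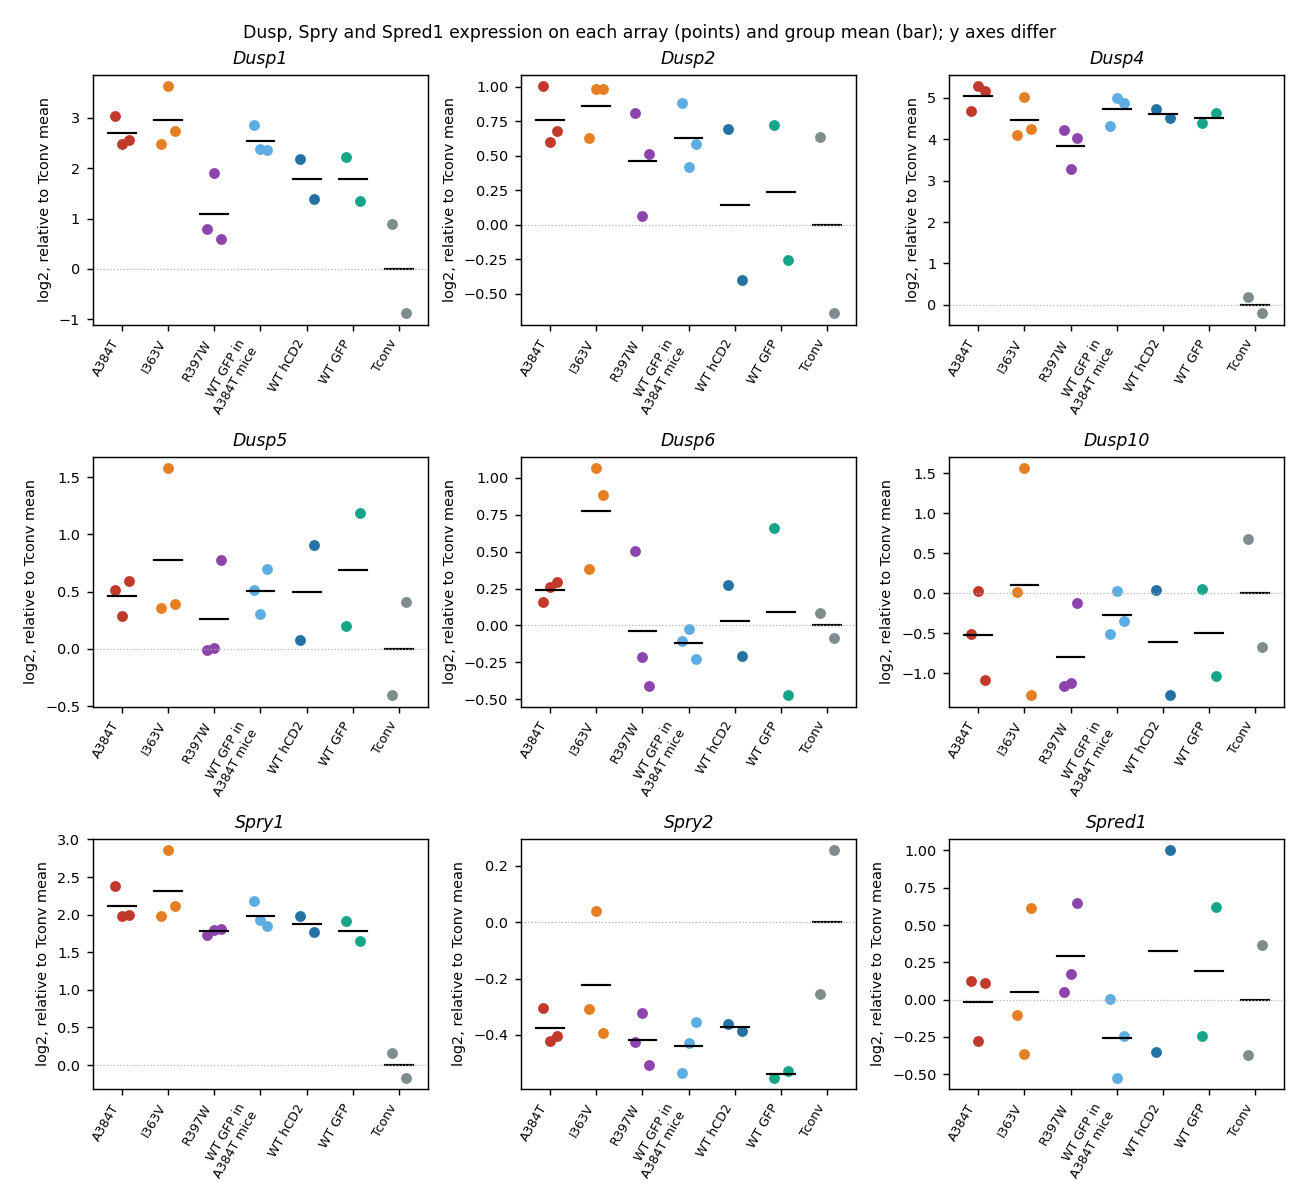
Expression of the 9 genes on each of the 18 arrays (points) with the group mean (bar), in log2 units with the Tconv mean at 0; the groups stand left to right from A384T to Tconv, and the y axes differ between genes. Dusp4 and Spry1 are well above the Tconv arrays on all 16 Treg arrays (3.27 to 5.29 and 1.65 to 2.86), whereas Dusp10 spreads from -1.28 to 1.56 over the Treg arrays.

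Spred1, a membrane protein that brings the Ras inhibitor neurofibromin to Ras, depends on the probe set. On the probe set used it was at 0.32 ± 0.96 in WT hCD2 and 0.19 ± 0.61 in WT GFP cells (SD, n = 2 each), with Tconv arrays at -0.37 and 0.37, and the log2 change of 0.26 ± 0.37 was not called (adjusted p = 0.835). The probe set second in variance was higher in wild-type Treg cells (0.74 ± 0.18, adjusted p = 0.0213), and its values correlated with those of the first at -0.46 over the 18 arrays. The other 6 had changes of -0.24 to 0.31 and none was called. The same probe set was also higher in A384T (0.87 ± 0.19, adjusted p = 0.0103) and I363V cells (0.80 ± 0.19, adjusted p = 0.0325) than in Tconv cells, while R397W cells had 0.36 ± 0.19 (adjusted p = 0.544). The probe set next in variance passed in A384T cells as well (0.64 ± 0.18, adjusted p = 0.0461), whereas the one used gave -0.01 ± 0.39 there. With probe sets that disagree, no direction is given for Spred1.

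**Figure D2:**
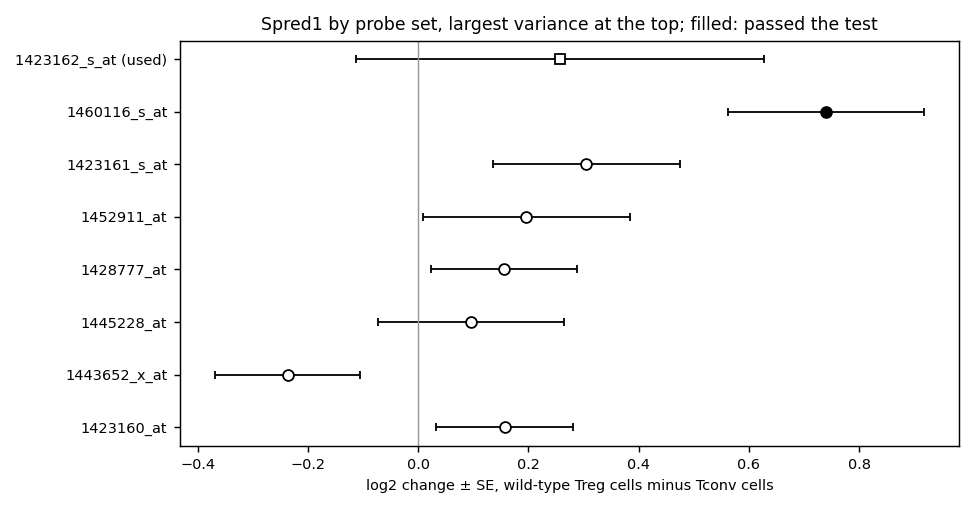
Log2 change ± SE of each of the 8 Spred1 probe sets between wild-type Treg cells and Tconv cells, ordered by variance from the top; the square is the probe set used. One probe set passed the test (filled, 0.74), 1 other had a negative change (-0.24), and the rest were not called.

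Dusp4 and Spry1 stayed above Tconv levels in all 3 mutants. Against Tconv cells, 3 of 9 genes were called in A384T cells, beside 6.52% of all genes, and 3 of 9 in I363V cells, beside 2.51%. In R397W cells 2 of 9 were called, beside 2.02% of all genes. All these calls were higher in the mutant, and all the comparisons use the same Tconv arrays.

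Dusp4 stood at 4.68, 5.29 and 5.17 in A384T, 4.10, 5.01 and 4.26 in I363V, and 4.23, 3.27 and 4.04 in R397W cells, with the Tconv arrays at 0.20 and -0.20. R397W 2 was the lowest of the 16 Treg arrays and A384T 2 the highest. The log2 changes against Tconv were 5.05 ± 0.31 in A384T (33.0-fold, adjusted p = 1.26e-07), 4.46 ± 0.31 in I363V (22.0-fold, adjusted p = 7.5e-07) and 3.85 ± 0.31 in R397W cells (14.4-fold, adjusted p = 4.57e-06).

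Spry1 had values of 2.38, 1.98 and 1.9997 in A384T, 1.98, 2.86 and 2.11 in I363V, and 1.73, 1.79 and 1.81 in R397W cells, with the Tconv arrays at 0.17 and -0.17. The R397W arrays lay close together and inside the range of the wild-type Treg arrays, and I363V 2 was the highest of all. The changes against Tconv were 2.12 ± 0.22 in A384T (adjusted p = 1.82e-05), 2.32 ± 0.22 in I363V (adjusted p = 1.92e-05) and 1.78 ± 0.22 in R397W cells (adjusted p = 0.000268).

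Dusp1 reached 3.04, 2.47 and 2.56 in A384T, 2.48, 3.63 and 2.74 in I363V, and 0.79, 1.91 and 0.59 in R397W cells, with the Tconv arrays at 0.88 and -0.88. Only the R397W arrays overlapped the Tconv arrays. The changes against Tconv were 2.69 ± 0.51 in A384T (6.46-fold, adjusted p = 0.00399), 2.95 ± 0.51 in I363V (7.74-fold, adjusted p = 0.00435) and 1.10 ± 0.51 in R397W cells (adjusted p = 0.458). Without Tconv 2 neither of the first pair was called (1.81 in A384T, adjusted p = 0.109, and 2.07 in I363V, adjusted p = 0.111), and without it the R397W value was 0.21. The I363V call was also lost with the spread of these groups alone (adjusted p = 0.133). Among the rest, Spry2 lay below both Tconv arrays on every A384T and R397W array (-0.38 ± 0.15 and -0.42 ± 0.15) without passing (adjusted p = 0.173 and 0.247). Its other probe set was lower in A384T cells (-0.44 ± 0.12, adjusted p = 0.0408). The early response list had array medians of 0.90 to 0.91 in A384T, 0.88 to 1.58 in I363V and 0.09 to 0.48 in R397W cells, against -0.43 and 0.43 in Tconv cells, and its part in the Dusp1 values was not tested.

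The mutants were next compared with WT hCD2 cells, which carry the same reporter, to ask what each substitution changes. No gene of the 9 was called: 0 of 9 in A384T cells beside 0.280% of all genes, 0 of 9 in I363V cells beside 0.912%, and 0 of 9 in R397W cells beside 2.26%. At an unadjusted p under 0.05 in limma's test, 0 of the 9 passed in A384T, 2 in I363V (Dusp1 and Dusp6) and 1 in R397W cells (Dusp4). Of all 18193 genes, 1469 passed at that level in A384T, 1626 in I363V and 2128 in R397W cells. WT hCD2 cells have 2 arrays, which lie well apart from each other for Dusp1, Dusp2, Dusp5, Dusp10 and Spred1.

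Among the nuclear phosphatases, Dusp1 averaged 2.69 ± 0.31 in A384T, 2.95 ± 0.60 in I363V and 1.10 ± 0.71 in R397W cells (SD, n = 3 each), against 1.79 ± 0.56 in WT hCD2 cells (SD, n = 2). The log2 changes were 0.90 ± 0.51 (adjusted p = 0.694), 1.16 ± 0.51 (adjusted p = 0.51) and -0.70 ± 0.51 (adjusted p = 0.71). All A384T and I363V arrays were above both WT hCD2 arrays, whereas those of R397W overlapped them.

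Dusp4 averaged 5.05 ± 0.32 in A384T, 4.46 ± 0.49 in I363V and 3.85 ± 0.51 in R397W cells, against 4.62 ± 0.15 in WT hCD2 cells. Each R397W array was below both WT hCD2 arrays, and the log2 change of -0.77 ± 0.31 did not pass (adjusted p = 0.319). In the same comparison 3 of 6 Treg identity genes were lower, with array medians of 3.34 to 3.82 in R397W, against 4.40 and 4.52 in WT hCD2 cells; their part in the Dusp4 value was not tested. The changes of 0.43 ± 0.31 in A384T and -0.16 ± 0.31 in I363V cells had overlapping arrays, and the I363V value turned to 0.02 without I363V 1.

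Dusp2 was at 1.01, 0.60 and 0.68 in A384T, 0.63, 0.98 and 0.98 in I363V, and 0.81, 0.06 and 0.52 in R397W cells, against 0.70 and -0.40 in WT hCD2 cells. Every mutant array was above WT hCD2 4, and each mutant overlapped the WT hCD2 range. The changes of 0.61 ± 0.39, 0.72 ± 0.39 and 0.32 ± 0.39 were not called (adjusted p = 0.725, 0.659 and 0.868).

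Dusp5 gave 0.52, 0.28 and 0.59 in A384T, 0.36, 1.58 and 0.39 in I363V, and -0.01, 0.01 and 0.78 in R397W cells, against 0.08 and 0.91 in WT hCD2 cells. Apart from I363V 2 and the lower R397W arrays, the mutant arrays lay inside the range of the WT hCD2 arrays. The changes were -0.03 ± 0.40, 0.28 ± 0.40 and -0.24 ± 0.40.

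Dusp6 stood at 0.16, 0.26 and 0.30 in A384T, 0.38, 1.07 and 0.88 in I363V, and 0.50, -0.21 and -0.41 in R397W cells, against 0.27 and -0.21 in WT hCD2 cells. The I363V arrays were all above both WT hCD2 arrays. Their log2 change of 0.75 ± 0.31 (95% interval 0.09 to 1.40) did not pass the adjusted test (adjusted p = 0.462), and the changes of 0.21 ± 0.31 in A384T and -0.07 ± 0.31 in R397W cells did not either.

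Dusp10, the phosphatase of JNK and p38, varied too widely to place. Its arrays were at -0.51, 0.03 and -1.09 in A384T, 0.01, 1.56 and -1.28 in I363V, and -1.16, -1.13 and -0.12 in R397W cells, against 0.05 and -1.27 in WT hCD2 cells. The I363V group alone spans more than the distance between any groups. The changes were 0.09 ± 0.68, 0.71 ± 0.68 and -0.19 ± 0.68, and the second Dusp10 probe set, which correlated with the first at 0.56 over the arrays, gave -0.22, 0.79 and 0.42.

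Spry1 had log2 changes of 0.25 ± 0.22 in A384T, 0.44 ± 0.22 in I363V and -0.09 ± 0.22 in R397W cells (adjusted p = 0.825, 0.607 and 0.948), and its 95% intervals ran from -0.56 to 0.91. The lowest A384T and I363V arrays (1.98 each) were level with WT hCD2 3 (1.98). Neither of the other inhibitors was called. Spry2 averaged -0.38 ± 0.06 in A384T, -0.22 ± 0.23 in I363V and -0.42 ± 0.09 in R397W cells, against -0.37 ± 0.02 in WT hCD2 cells. Spred1 arrays ran from -0.28 to 0.12 in A384T, -0.37 to 0.61 in I363V and 0.05 to 0.65 in R397W cells, nearly all inside the span of the WT hCD2 arrays (-0.35 and 1.001).

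**Figure D3:**
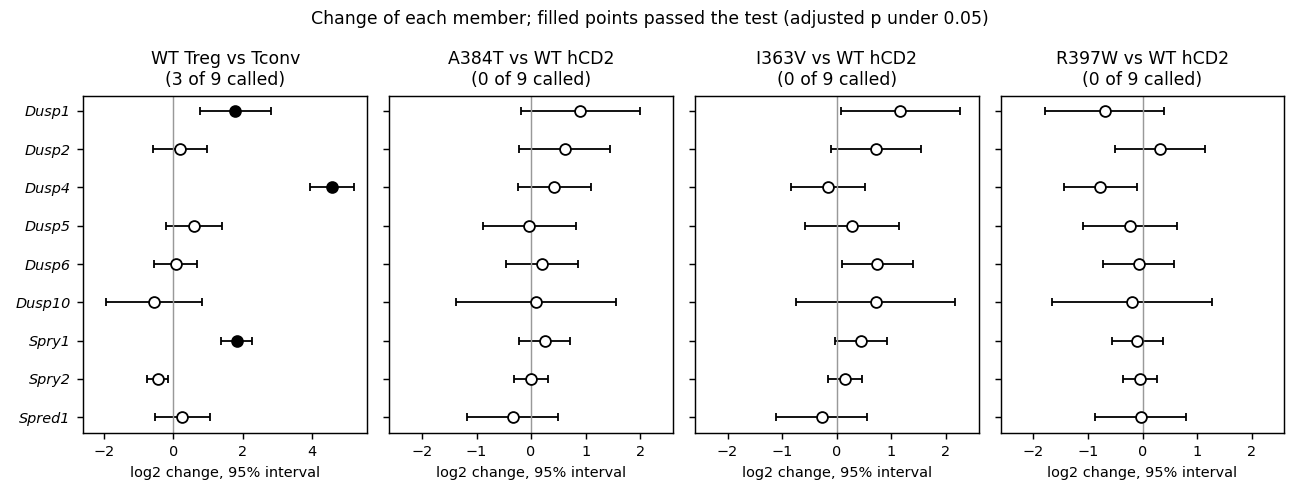
Log2 change of each of the 9 genes with its 95% interval in wild-type Treg against Tconv cells and in each mutant against WT hCD2 cells; filled points passed the test, and the x axis of the first panel is wider. The filled points are Dusp4, Spry1 and Dusp1 in the first panel, and no gene passed in the mutant panels.

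Of the comparisons between mutants, that of A384T with R397W called a gene of the 9. Between A384T and R397W cells 1 of 9 genes was called, beside 3.13% of all genes: Dusp4 was 2.29-fold higher in A384T cells (log2 change 1.198 ± 0.28, adjusted p = 0.0325), and its lowest A384T array (4.68) was above the highest R397W array (4.23). The call was lost without A384T 2 (1.08, adjusted p = 0.147), without A384T 3 (1.14, adjusted p = 0.116), without R397W 2 (0.91, adjusted p = 0.114), and with the spread of these groups alone (adjusted p = 0.0903).

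Dusp1 had the widest separation between mutants, without passing. Its log2 change was 1.60 ± 0.46 in A384T against R397W cells (3.02-fold, adjusted p = 0.0794) and 1.86 ± 0.46 in I363V against R397W cells (3.62-fold, adjusted p = 0.179), and in both cases the arrays did not overlap. The A384T difference passed without R397W 2 (2.01, adjusted p = 0.0386) and among the genes of above-median variance alone (adjusted p = 0.0369). The early response list had array medians of 0.90 to 0.91 in A384T and 0.88 to 1.58 in I363V, against 0.09 to 0.48 in R397W cells. Of the 12, 2 were higher in A384T than in R397W cells, Jun (3.84 ± 0.84) and Junb (1.51 ± 0.36), and they are named after their values were seen. The R397W arrays were not alike. On R397W 1, 2 and 3, Jun stood at -3.68, 0.88 and -3.22 and Dusp1 at 0.79, 1.91 and 0.59. Junb, at 0.11, -0.21 and 0.996, was instead lowest on R397W 2. Of the Treg identity genes 4 of 6 were higher in A384T cells, with array medians of 4.15 to 4.55 in A384T, against 3.34 to 3.82 in R397W cells. Markers of other cell types also differed between A384T and R397W cells: Nkg7 was higher in A384T cells (2.02 ± 0.36, 1 of 5 CD8 T and NK cell markers), as was Lyz2 (1.34 ± 0.31, 1 of 8 myeloid markers), and Ms4a1 was lower (-1.59 ± 0.27, 1 of 5 B cell markers). They too are named after their values were seen. The part of these lists in the Dusp1 and Dusp4 values was not tested.

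Between A384T and I363V cells 0 of 9 genes were called, beside 1.14% of all genes, with 0 at an unadjusted p under 0.05. Between I363V and R397W cells 0 of 9 were called as well, beside 0.0824%, and 4 of the 9 (Dusp1, Dusp4, Dusp6 and Spry1) had an unadjusted p under 0.05. Of all 18193 genes, 1574 had such a p in limma's test between A384T and I363V cells, and 1550 between I363V and R397W cells. Dusp4 differed by 0.59 ± 0.28 between A384T and I363V cells and by 0.61 ± 0.28 between I363V and R397W cells, so I363V lay between the others and neither difference passed (adjusted p = 0.593 and 0.579). For Spry1 the differences were -0.20 ± 0.20 for A384T against I363V, 0.34 ± 0.20 for A384T against R397W and 0.54 ± 0.20 for I363V against R397W cells.

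For A384T there is a further control, the GFP+ wild-type cells of mice with that mutation. None of the 9 genes was called without pairing, beside 0.522% of all genes, and 0 had an unadjusted p under 0.05. Of all 18193 genes, 915 had such a p in limma's test. Dusp6 was at 0.16, 0.26 and 0.30 on A384T arrays 1, 2 and 3, against -0.10, -0.02 and -0.23 on the wild-type GFP arrays of equal number, and the groups did not overlap. The log2 change was 0.36 ± 0.27 (adjusted p = 1). Arrays of equal number deviated together in these groups, and in a fit of these 6 arrays with the number as a block Dusp6 passed narrowly (0.36 ± 0.09, adjusted p = 0.0481), as 1 of 9 genes, with differences of 0.26, 0.29 and 0.52 within the pairs. The same 6 arrays without the block gave an adjusted p of 0.287 for Dusp6. Over all genes these fits called 5.23% with the block and 0.797% without it.

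Dusp4 values of each pair differed in the same direction (by 0.36, 0.28 and 0.28), and the change of 0.31 ± 0.28 without the block had an adjusted p of 0.0574 with it. Without the block the change of Dusp1 was 0.16 ± 0.46 and that of Spry1 0.13 ± 0.20, and with it neither passed (adjusted p = 0.356 and 0.467). These differences are small beside those from Tconv cells: wild-type GFP cells of A384T mice had Dusp4 at 4.32, 5.01 and 4.88, Dusp1 at 2.86, 2.38 and 2.37, and Spry1 at 2.18, 1.93 and 1.85.

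None of the genes was called between wild-type Treg groups. Between wild-type GFP cells of A384T mice and those of wild-type mice, 0 of 9 genes were called beside 0.00% of all genes. Of all 18193 genes, 473 had an unadjusted p under 0.05 in limma's test. The changes of the 9 ran from -0.45 to 0.75. The highest of these was Dusp1 (0.75 ± 0.51), whose arrays did not overlap. WT hCD2 against WT GFP cells gave 0 of 9, beside 0.00%, with 462 genes at an unadjusted p under 0.05 and changes of -0.20 to 0.17. Both counts, 473 and 462, are below the 0.05 share of 18193 genes that this threshold allows by chance. The interaction, which sets the difference of A384T cells from the GFP+ cells of their mice against the difference between WT hCD2 and WT GFP cells, called 0 of 9, beside 0.0495% of all genes. None of the 9 had an unadjusted p under 0.05 in it, beside 682 of all 18193 genes in limma's test. The estimates of the 9 ran from -0.125 to 0.419.

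Variation among arrays of a group was large for most of the phosphatases. Pooled over the 7 groups, the SD within groups was 0.85 for Dusp10, 0.63 for Dusp1, 0.49 for Dusp5, 0.48 for Spred1, 0.47 for Dusp2, 0.38 for Dusp4, 0.37 for Dusp6, 0.26 for Spry1 and 0.16 for Spry2, against a median of 0.18 over all genes. Dusp10 varied more than 99.5% of genes and Dusp1 more than 98.3%, while Spry2 varied more than 39.6%. Dusp4 and Spry1 varied within groups more than 89.6% and 71.1% of genes.

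Much of this variation ran along the early response list. The list's deviation on an array is the median, over its 12 genes, of each gene's difference from its own group mean. Over the 18 arrays, deviations from the group mean correlated with that of the list at 0.799 for Dusp2, 0.755 for Dusp1, 0.73 for Dusp10, 0.665 for Dusp6 and 0.633 for Spry1 (Spearman's rho 0.655, 0.711, 0.719, 0.608 and 0.523). Spred1, on the probe set used, ran the other way (-0.774, rho -0.798). Dusp4 (0.37), Dusp5 (-0.34) and Spry2 (-0.16) followed the list less. The list's deviations on Tconv 1 and WT GFP 1 lay furthest, by a narrow margin, from the median of these deviations over the 18 arrays. Without these 2 arrays, the values were 0.705 for Dusp2, 0.678 for Dusp1, 0.713 for Dusp10, 0.609 for Dusp6, 0.617 for Spry1 and -0.743 for Spred1. Deviations were not recomputed for this, and Tconv 2 and WT GFP 2 hold the opposite deviations of the arrays left out. The values without the 2 arrays therefore cannot show how far the correlations rest on those groups. The 18 points include arrays that deviate together, so the correlations describe these 18 arrays. The list deviated by only -0.077 to 0.059 on A384T arrays and -0.045 to 0.026 on wild-type GFP arrays of A384T mice. On R397W arrays it deviated by -0.027 to 0.009. Dusp1 deviated by -0.221 to 0.351, -0.169 to 0.325 and -0.507 to 0.818 in these groups, where the list varied little.

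**Figure D4:**
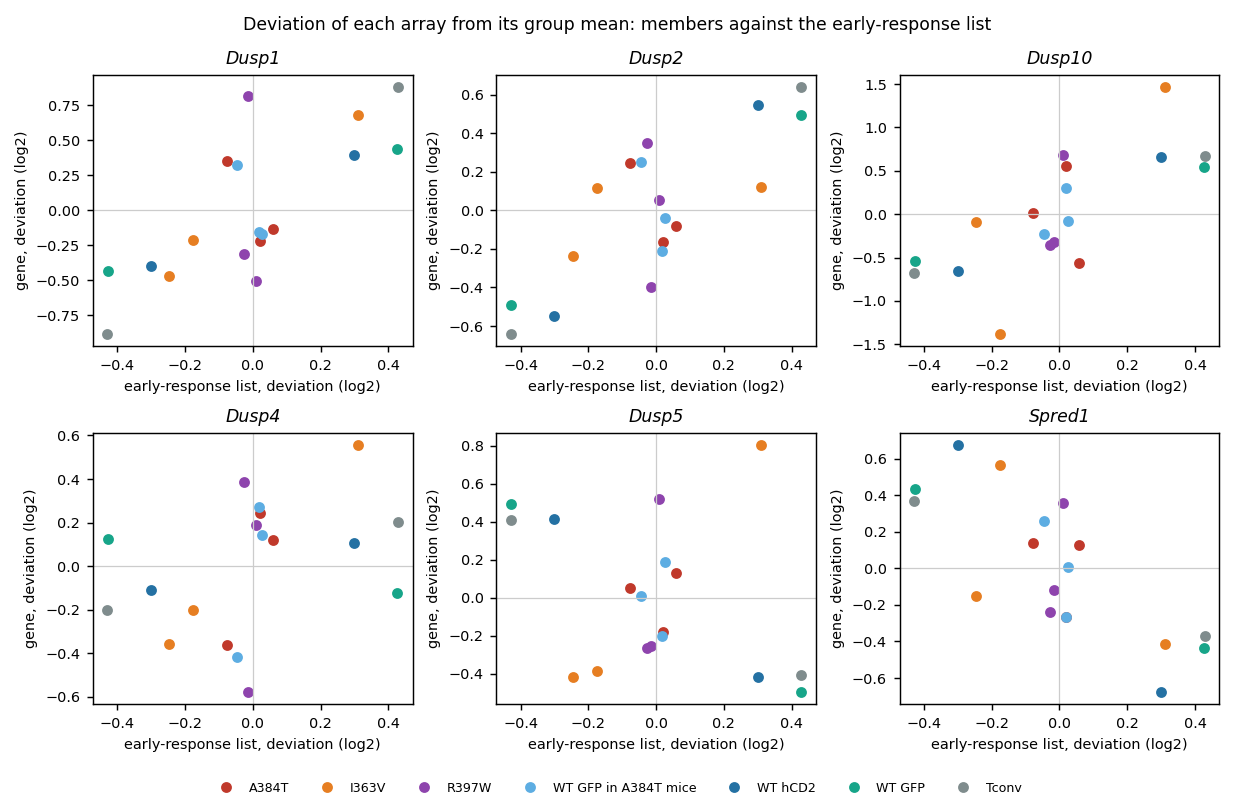
Deviation of each array from its group mean for 6 of the genes (y axis, log2) against the median of the deviations of 12 early response genes (x axis, log2). Each point is an array, coloured by group. Dusp1, Dusp2 and Dusp10 climb with the list, Spred1 descends, and Dusp4 and Dusp5 show no common slope.

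I363V 2 had the highest early response median (1.58) of all arrays, and it also had the highest Dusp1 (3.63), Dusp5 (1.58), Dusp6 (1.07), Dusp10 (1.56), Spry1 (2.86) and, among Treg arrays, Spry2 (0.04). Among the genes themselves, deviations of Dusp1 and Spry1 correlated at 0.74, Dusp10 and Spry1 at 0.67, and Dusp2 and Dusp6 at 0.66, while Dusp10 and Spred1 ran in opposite directions (-0.72). Dusp1 and Dusp4, both higher in Treg cells, did not deviate together (-0.06).

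The genes most like each of the 9 over the 18 arrays were sought among 6013 genes that ranged over at least 1 log2 unit. Dusp4 was most like the Treg identity genes Ctla4 (r = 0.98) and Il2ra (0.97) and like Tmem158 (0.97), and over the 16 Treg arrays alone these values were 0.79, 0.74 and 0.83. Spry1 was most like Gbp2b (0.96), Ctla4 (0.94) and the transcription factor Gfi1 (0.92), with 0.75, 0.50 and 0.32 over Treg arrays, so that the likeness to Gfi1 was weak among Treg arrays.

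Dusp1 was most like Usp46 (0.91), Phlda1 (0.89) and the kinase Sik1 (0.88), and the last of these was closer still over Treg arrays (0.95). The nearest to Dusp2 were Tiprl, the NF-kB pathway kinase Ikbkb and Sbno2 (0.87 to 0.89), to Dusp5 Gfod1, the early response receptor Nr4a3 and Rasgef1b (0.74 to 0.80), and to Dusp6 Nxf1, the stress gene Gadd45a and Oser1 (0.77 to 0.78). Gpr132, Hectd4 and the kinase Pim2 were nearest to Dusp10 (0.84 to 0.86), Sulf2, Bex6 and Slco4a1 to Spry2 (0.81 to 0.84), and A830010M20Rik, the kinase Stk39 and the kinase Rock1 to Spred1 (0.90 to 0.92). Over the Treg arrays alone the values for Dusp2, Dusp5, Dusp6, Dusp10 and Spred1 were 0.69 to 0.93, and those for Spry2 0.46 to 0.58.

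Other genes of these families and cascades were taken from lists. In wild-type Treg against Tconv cells, 0 of 4 other MAP kinase phosphatases, 0 of 13 atypical dual-specificity phosphatases and 0 of 4 other Sprouty and Spred genes passed. Of 17 measured genes of the Ras and ERK cascade 2 were lower, and the 5 others listed are not analysed here: the Ras activator Rasgrp2 (-0.84 ± 0.22, adjusted p = 0.0354) and the Ras inhibitor Rasa3 (-0.40 ± 0.11, adjusted p = 0.0423). Both were close to the threshold. Rasa3 lost its call with each of the 6 arrays left out in turn (adjusted p = 0.0647 to 0.221), and Rasgrp2 without Tconv 1 (-0.54, adjusted p = 0.368), WT GFP 1, WT GFP 2 or WT hCD2 4 (adjusted p = 0.0679, 0.0889 and 0.0991).

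Of 12 measured genes of the JNK and p38 cascade, the p38 family kinase Mapk12 was higher in wild-type Treg cells (1.38 ± 0.22, adjusted p = 0.000896), and it was called with each array left out. Of 12 ERK output genes 3 were higher: the transcription factors Egr2 (0.84 ± 0.21, adjusted p = 0.0271) and Etv5 (1.42 ± 0.36, adjusted p = 0.0314), and Phlda1 (1.40 ± 0.35, adjusted p = 0.0263). None of the 3 was called without Tconv 1 (adjusted p = 0.285, 0.201 and 0.0675) or without WT hCD2 3 (adjusted p = 0.0582, 0.106 and 0.0761). Egr2 was also lost without WT GFP 2 or WT hCD2 4, and Etv5 and Phlda1 without Tconv 2 or WT GFP 1 (adjusted p = 0.064 to 0.3). The list medians were 0.14 for ERK output, 0.24 for JNK and p38 and -0.11 for Ras and ERK genes, against -0.01 for all genes.

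Rasgrp2 also differed between mutant and WT hCD2 cells. It was at 0.39, 0.34 and 0.62 on the R397W arrays and -0.14, 0.26 and 0.14 on the I363V arrays, against -0.79 and -1.14 in WT hCD2 cells. Both mutants were near Tconv values (0.30 and -0.30) and did not overlap the WT hCD2 arrays, whereas A384T arrays lay at -0.69, -1.41 and -1.10. The log2 change was 1.42 ± 0.23 in R397W (adjusted p = 0.00424; 0.0768 without WT hCD2 4) and 1.05 ± 0.23 in I363V cells (adjusted p = 0.0498), and the I363V call was lost with any 1 of 5 arrays left out (adjusted p up to 0.518).

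Styx, a catalytically inactive relative of the dual-specificity phosphatases, was 0.66 ± 0.14 higher in R397W than in WT hCD2 cells (adjusted p = 0.0268). It was not called with the mean of its probe sets (0.22, adjusted p = 0.348), nor with WT hCD2 3, WT hCD2 4, R397W 2 or R397W 3 left out in turn (adjusted p = 0.127, 0.199, 0.0842 and 0.073).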

How the data were processed

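The 18 arrays were grouped by their titles. Per the submitters' processing notes the authors used RMA; version and chip software are not given in the sources used here. The deposited values are taken as log2 by RMA's convention and sum to 0 over the 2 Tconv arrays at each of 45101 probe sets (within 1.0e-06). This removes probe set levels, so no filter on dim probe sets was possible. Values ran from -5.80 to 7.59 and array medians from -0.063 to 0.016. The chip annotation ties 34945 probe sets to 1 gene and 932 to several, which were not used. A model with 1 mean per group over the 18 arrays was fitted with limma 3.58.1 in R 4.3.3 (eBayes, 11 residual and 3.3 prior degrees of freedom), with two-sided tests and Benjamini-Hochberg adjustment over 18193 genes at 0.05, tested on simulated data. The simulated arrays were drawn independently, with changes of 2 log2 units. Of these changes 96.0 to 97.8% were recovered, and 3.8 to 7.6% of calls were false. Arrays that deviate together, as here, were not simulated, so error rates for these data are not known from it. Changes are log2 differences ± SE. The number of arrays limits precision, and since no label says that arrays are separate animals, p-values measure the spread between these samples.

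The 9 genes and the gene lists were chosen with earlier results of these data known. Besides the 9, the text names from each list genes called in wild-type Treg against Tconv cells or in I363V or R397W against WT hCD2 cells (at most the 4 of smallest adjusted p per direction), and the 3 genes most correlated with each of the 9. Exceptions are stated. Between A384T cells and GFP cells from A384T mice, deviations of equal-numbered arrays correlated at 0.69, 0.65 and 0.58 across genes, and all others were negative. The pairing comes from these data, not from a label. Alternatives were the mean of a gene's probe sets, other probe sets singly, arrays centred on their median, genes of above-median variance alone, robust eBayes, only the groups compared, leaving out each array, and the replicate number as a block. Tables and plots were made with Python 3.11.15, numpy 2.4.6, pandas 2.3.3 and matplotlib 3.10.9.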

Additional observations from a re-analysis of the deposited data

How the results depend on the processing

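For the 9 genes, 52 changes given above were recomputed. Of 303 values under alternatives other than leaving out an array, 284 kept direction and side of the threshold, 7 lost and 7 gained a call and 5 turned; with an array left out, 244 of 282 kept both and 28 turned. The causes were not tested. All turned values belong to changes that were not called. With another probe set, Spred1 between wild-type Treg and Tconv cells was -0.24, and Dusp10 against WT hCD2 cells was -0.22 in A384T and 0.42 in R397W cells (-0.062 and 0.11 with the mean of the probe sets).

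Leaving out 1 array gave ranges across 0 in wild-type Treg against Tconv cells for Dusp2 (-0.45 to 0.83), Dusp6 (-0.22 to 0.35), Dusp10 (-1.23 to 0.12) and Spred1 (-0.11 to 0.63). Against WT hCD2 cells it did so in A384T for Dusp5 (-0.45 to 0.38), Dusp6 (-0.034 to 0.45) and Dusp10 (-0.57 to 0.75), in I363V for Dusp4 (-0.44 to 0.02), Dusp5 (-0.13 to 0.70) and Dusp10 (-0.021 to 1.40), and in R397W for Dusp2 (-0.23 to 0.86), Dusp5 (-0.65 to 0.18), Dusp6 (-0.34 to 0.17), Dusp10 (-0.85 to 0.47) and Spry1 (-0.20 to 0.012). The same held for Dusp1 in A384T against wild-type GFP cells of A384T mice (-0.018 to 0.32), and for Dusp1 (-0.49 to 0.080) and Spry1 (-0.37 to 0.073) in A384T against I363V cells. The count between A384T and R397W cells was 0 to 1 with an array left out and 2 among genes of above-median variance. It was 0 with only the groups compared, beside 1.64% of all genes. With the mean of all probe sets, 5 genes differed between A384T and Tconv cells, Spry2 and Spred1 being the additions.

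With the replicate number as a block (replicate block), 1 of 9 genes was called in A384T against wild-type GFP cells of A384T mice, as given above. No label gives a pairing in any comparison. Elsewhere none was taken in the text above, although WT GFP 1 and Tconv 1 also deviated together (0.71). There the block called 6 genes in WT GFP against Tconv cells (Dusp5, 0.69, Dusp10, -0.49, and Spry2, -0.54, besides those called above; adjusted p up to 0.017), in a fit that called 18.4% of all genes, and 0 between A384T and R397W cells (0.264% of all genes). Against Tconv cells, on arrays 1 and 2 alone, it called 1 in I363V (0.308% of all genes) and 1 in R397W cells (0.231%), Dusp4 each time. It changed no other count of the 9 genes by over 1.5 times. The 95% intervals of Dusp10 against WT hCD2 cells ran from -1.65 to 2.17 over the mutants. With 2 or 3 arrays a group, changes inside an interval were therefore not excluded. Signal over background cannot be judged from centred values.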

Other observations

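Dusp16, a phosphatase of JNK and p38 outside the 9 genes, was chosen after its values were seen. It stood at 0.58, 1.15 and 1.25 on the A384T arrays, against -0.21, -0.04 and -0.02 on the R397W arrays, and the groups did not overlap. The log2 change between A384T and R397W cells was 1.08 ± 0.22 (limma, adjusted p = 0.0163), and it was not recomputed with arrays left out. I363V arrays lay at 0.17, 0.47 and -0.21, and the wild-type GFP arrays of A384T mice at 0.73, 1.53 and 1.31, beside 0.73 and 0.97 in WT hCD2, 0.39 and 0.75 in WT GFP and -0.11 and 0.11 in Tconv cells.

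Rasgrp1, the Ras activator of the T cell receptor pathway, was also higher in A384T than in R397W cells (0.94 ± 0.23, adjusted p = 0.0377), whereas Rasgrp2 was lower there (-1.52 ± 0.21, adjusted p = 0.000868). Both were named after their values were seen for this pair of mutants.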
